A study of Mus musculus with 16 samples.

Results

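The genes described here carry out DNA replication and mitosis. They are a listed set of 38, matched by symbol in both deposited count tables, and all 38 were found among the 24091 genes of each table. By role, 15 act in licensing of replication origins, 4 in S phase synthesis, 15 in mitosis, and 4 encode cyclins of G1. The messenger RNA came from 16 mouse libraries, each from an embryo or animal with its own number. The E16.5 knockout (KO) group was 3 whole pancreata of Pdx1:Cre;Tff2fl/fl embryos at embryonic day 16.5, and its control group was 3 pancreata of Tff2fl/fl embryos of the same day. The islet KO group was islets of 5 male Pdx1:Cre;Tff2fl/fl mice aged 60 weeks, and its control group was islets of 5 male Tff2fl/fl mice of that age. All animals therefore carried floxed Tff2, the gene of the secreted trefoil factor 2, and Cre in KO animals was driven by the promoter of Pdx1, which is active in pancreatic epithelium and not in the mesenchyme, vessels or nerves of a whole pancreas. Pancreata were freed of spleen, and islets were released by digestion and picked by hand.

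Before a cell copies its DNA, the origin recognition complex (ORC) binds replication origins in G1, and Cdc6 and Cdt1 load the MCM helicase there, a step called licensing. Geminin, the product of Gmnn, blocks Cdt1 once S phase has begun, so that each origin fires once per cycle. Mitotic genes are transcribed later, in G2 and M, and D-type cyclins act first, in G1, as partners of Cdk4 and Cdk6. Epithelium and mesenchyme of the fetal mouse pancreas proliferate strongly, whereas beta cells of adult mice divide rarely and less with age.

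The libraries held 14866194 to 22699934 counts in pancreata and 22595400 to 32385042 in islets. Tff2 had 2.38, 8.82 and 1.42 CPM (counts scaled to the library's size, after TMM scaling) in the KO pancreata, against 34.6, 20.4 and 31.4 CPM in the controls, and 0 to 0.513 CPM in KO islets, against 1.05 to 5.05 CPM in control islets. Its log2 fold change was -2.80 at E16.5 (edgeR adjusted p = 0.0297) and -3.07 in islets (edgeR adjusted p = 0.0884). The islet value thus did not pass 0.05. Markers fitted the labelled tissues, with 13 acinar markers summing to 49559 to 120260 CPM in pancreata and 147 to 2114 CPM in islets, and 12 islet markers summing to 971 to 3121 CPM in pancreata and 177231 to 217357 CPM in islets. Pancreas KO 01 stood apart, with 9 hepatocyte markers at 1622 CPM, against 398 and 432 CPM in the other KO pancreata and 413 to 570 CPM in controls. Pancreas KO 18 was the only pancreas with low Xist, at 1.38 CPM, and the other 5 had 973 to 1594 CPM. It had 119 CPM of the Y chromosome gene Ddx3y, where the other 5 had at most 0.154 CPM. By these genes KO 18 was male and the other pancreata female, so sex was not balanced between genotypes at E16.5. The part of sex in the values was not tested. All levels are CPM from 1 TMM scaling over all 16 libraries, and errors are SD over libraries. A gene was called where the adjusted p of edgeR's quasi-likelihood test was under 0.05.

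**Figure D1:**
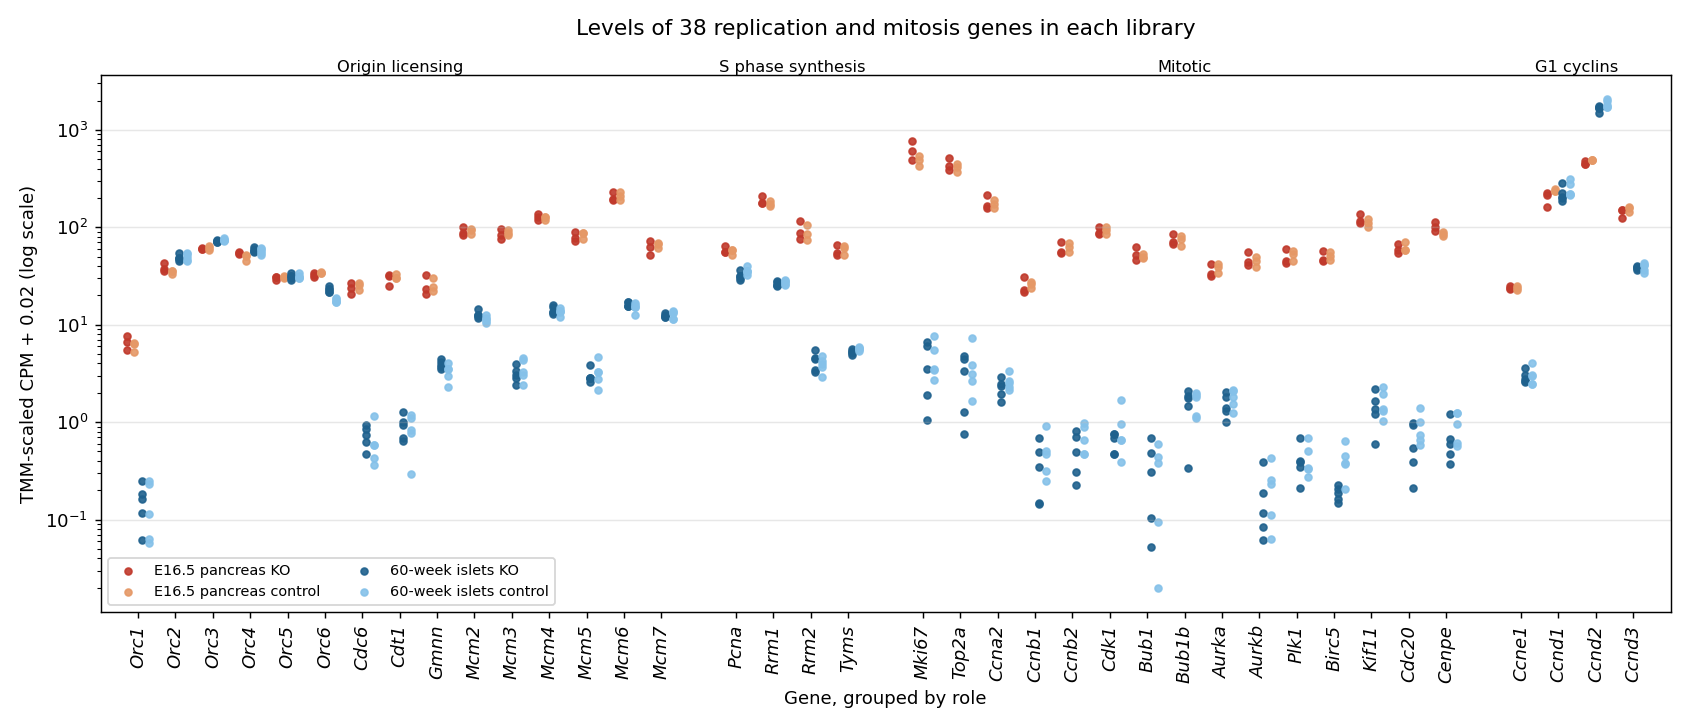
Level of each of the 38 genes in each library, as CPM plus 0.02 on a log axis, with genes grouped by role. Each point is 1 library. The mitotic genes lie between 21.4 and 760 CPM in pancreata and at or below 7.70 CPM in islets, while Orc2 to Orc5 and Ccnd1 have points at similar height in both tissues.

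The first comparison set control E16.5 pancreas against control islets. All 15 mitotic genes were higher in fetal pancreas, by 4.49 (Aurka) to 7.78 (Aurkb) on the log2 scale with a median of 6.58. Of the 15 licensing genes 11 were higher, 3 were lower and 1 was not called, with a median of 3.06, and the 4 S phase genes were all higher. The G1 cyclins divided, with Ccne1 and Ccnd3 higher, Ccnd2 lower and Ccnd1 not called. In all, 32 of 38 genes were called higher, against 44.7% of the 15388 genes tested, and 4 were called lower, against 41.8%. No control pancreas overlapped a control islet library in those 32 genes, where 42.2% of tested genes had no overlap and were higher, and in 3 of the 4 lower ones, where 41.7% had no overlap and were lower. A call alone was thus common. A called log2 fold change of at least 4 was reached by 21 of the 38, namely all 15 mitotic genes, 5 licensing genes and Rrm2, against 7.98% of tested genes. The median over all tested genes was 0.04. Tissue, age, sex and preparation differ together between these groups and cannot be told apart. In bulk RNA, fewer cells of a type and less RNA per cell cannot be told apart either.

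Licensing factors covered the widest span. Orc1, the ORC subunit whose amount is known in human cells to follow the cell cycle, had 5.22, 6.33 and 6.48 CPM in control pancreata, against 0.0951, 0.227, 0.209, 0.0374 and 0.0425 CPM in control islets. The log2 fold change was 5.59 (SE 0.311, edgeR adjusted p = 2.80e-09), and the islet values rest on 15 counts over the 5 libraries. Cdc6, which helps to load the helicase, averaged 25.1 ± 2.02 CPM in control pancreata (SD, n = 3) and 0.602 ± 0.316 CPM in control islets (SD, n = 5), a log2 fold change of 5.44. Both genes were barely detected in islets. Cdt1, its partner in loading, stood at 31.0 ± 1.75 CPM in control pancreata (SD, n = 3) and 0.815 ± 0.350 CPM in control islets (SD, n = 5), a log2 fold change of 5.27. Geminin (Gmnn), the inhibitor of Cdt1, averaged 25.7 ± 4.17 CPM and 3.26 ± 0.663 CPM in the same groups, a log2 fold change of 3.02.

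The remaining ORC subunits behaved otherwise. Orc2 had 33.2, 35.9 and 36.0 CPM in control pancreata, against 54.8, 50.1, 53.3, 45.3 and 46.6 CPM in control islets, which put it lower, at -0.47 on the log2 scale (SE 0.0717, adjusted p = 5.08e-05 by edgeR). Orc3 was lower in fetal pancreas by a log2 fold change of -0.24 and Orc4 by -0.16, the last with an edgeR adjusted p of 0.0485 and overlapping groups. Orc5 averaged 30.8 ± 0.622 CPM in control pancreata (SD, n = 3) and 31.3 ± 1.55 CPM in control islets (SD, n = 5), with a log2 fold change of 0.02 and an interval of 2 SE either side from -0.09 to 0.14. On this scaling, then, islets held no less RNA of Orc2, Orc3, Orc4 and Orc5 than fetal pancreas. These small values moved with the scaling. With library totals in place of TMM, which put the median of all genes at 0.23, Orc3 and Orc4 were not called, at -0.06 and 0.03, and Orc5 was called higher at 0.21. With scaling to pan-epithelial genes, which put that median at -0.66, Orc5 was called lower at -0.68. The Orc4 call held in 8 of 16 alternatives, and among others was lost without control pancreas 02 or 13 and without control islets 052 or 829. Orc6, the smallest ORC subunit, was between the extremes, with 33.8, 34.4 and 34.1 CPM in control pancreata, against 17.1, 17.0, 18.6, 17.4 and 18.3 CPM in control islets. It was higher by 0.99 on the log2 scale (SE 0.0583, adjusted p = 4.84e-09 by edgeR).

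**Figure D2:**
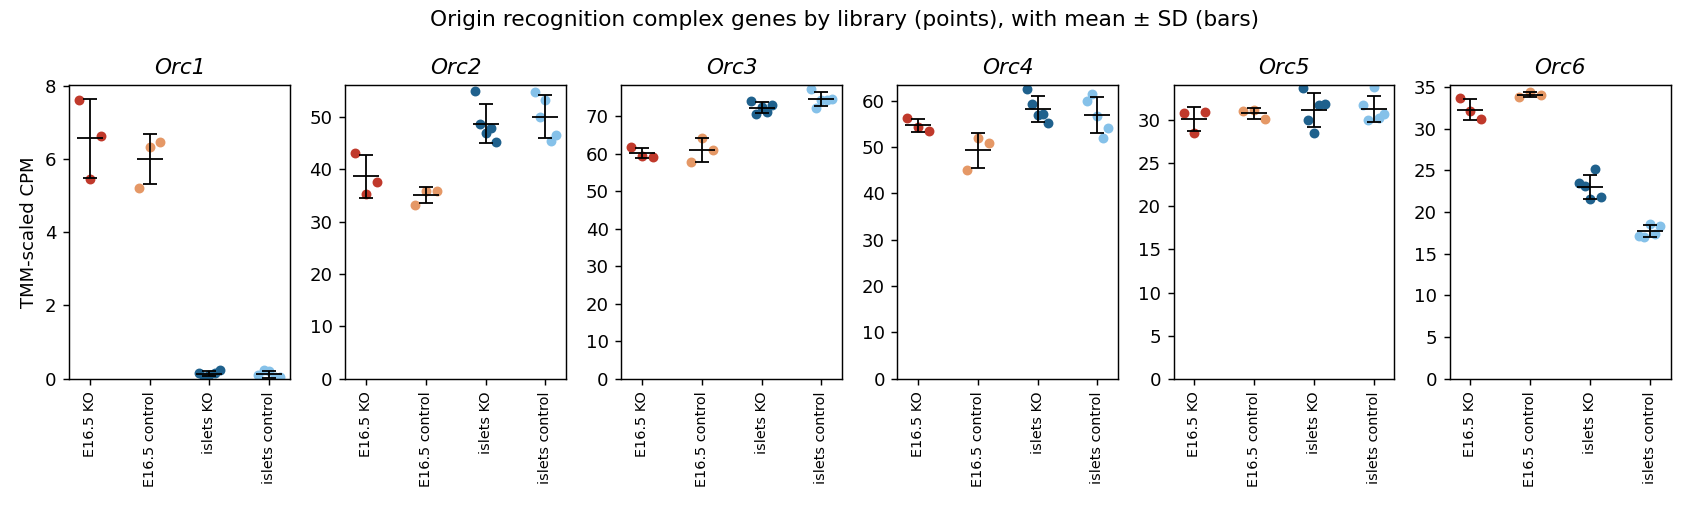
Level of the ORC genes Orc1 to Orc6 in each library, as TMM-scaled CPM on linear axes that start at 0. Points are libraries and bars are the mean ± SD of the group. Orc1 is at most 0.231 CPM in every islet library, Orc2 and Orc3 lie higher in islets than in pancreata, and Orc6 is higher in islets of KO animals (21.5 to 25.1 CPM) than in those of controls (17.0 to 18.6 CPM).

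The genes of the MCM helicase, Mcm2 to Mcm7, were all higher in fetal pancreas but unequally so. The log2 fold change was 4.77 (SE 0.140) for Mcm5, 4.70 for Mcm3, 3.85 for Mcm6, 3.24 for Mcm4, 3.06 for Mcm2 and 2.43 (SE 0.0759) for Mcm7. Although the encoded proteins form 1 ring, their RNA was closer in amount in pancreata than in islets. Per kb of gene length, the level in control pancreata was 23.8 (Mcm5) to 47.8 (Mcm6) CPM per kb, against 0.911 (Mcm5) to 5.31 (Mcm7) CPM per kb in control islets. The Mcm7 gene contains 3 microRNA genes, Mir106b, Mir25 and Mir93, whose reads cannot be told from its own.

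S phase genes followed the licensing genes. Rrm2, the regulated subunit of ribonucleotide reductase, had 86.1, 105 and 74.9 CPM in control pancreata, against 4.75, 2.91, 3.63, 3.89 and 4.25 CPM in control islets, a log2 fold change of 4.56. Tyms, which makes thymidylate, reached 3.44, and Rrm1, the large reductase subunit, 2.74. Pcna, the sliding clamp of replication, which also serves DNA repair, differed least, with 58.7, 58.8 and 52.5 CPM in control pancreata, against 39.9, 35.6, 35.3, 32.6 and 34.7 CPM in control islets. It was higher by 0.72 on the log2 scale (SE 0.0672, adjusted p = 4.74e-07 by edgeR), but stood at 0.02 and was not called with pan-epithelial scaling. Per kb, Pcna was the most abundant of the 4 in control islets, at 28.4 CPM per kb, where Rrm1 had 6.83 and Tyms 1.43 CPM per kb.

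Among mitotic genes, the proliferation marker Mki67 had 487, 540 and 428 CPM in control pancreata, against 7.70, 2.68, 5.45, 3.48 and 3.40 CPM in control islets, a log2 fold change of 6.79. Top2a, which untangles sister chromatids, had 411, 450 and 373 CPM, against 7.32, 1.64, 3.84, 3.07 and 2.64 CPM in the same groups, a log2 fold change of 6.86. Control 052 was the highest islet library for both genes. Aurkb, the kinase of the chromosomal passenger complex, averaged 44.8 ± 5.17 CPM in control pancreata (SD, n = 3) and 0.198 ± 0.144 CPM in control islets (SD, n = 5), from 25 counts in those islets. Its partner Birc5 (survivin) was higher by 7.10, and the spindle checkpoint kinase gene Bub1 by 7.51, from 34 counts in control islets. All 3 were at the edge of detection in islets. The Polo kinase gene Plk1 reached 7.04, the mitotic kinase gene Cdk1 6.85, and the cyclins of mitosis 6.57 (Ccnb2), 6.12 (Ccna2) and 5.81 (Ccnb1). Of the others, Cenpe, a kinetochore motor, stood at 6.58, Cdc20, an activator of the anaphase-promoting complex, at 6.24, Kif11, the spindle motor, at 6.19, and Bub1b, a checkpoint gene, at 5.59. Aurka, the centrosomal Aurora kinase, had the smallest of these fold changes at 4.49 (SE 0.133), with 38.3 ± 3.72 CPM in control pancreata (SD, n = 3) and 1.75 ± 0.383 CPM in control islets (SD, n = 5). Per kb, the median mitotic gene stood at 22.9 CPM per kb in control pancreata and 0.326 CPM per kb in control islets. The median licensing gene stood at 20.7 and 3.43 CPM per kb in the same groups.

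Of the G1 cyclins, Ccnd2, the D-type cyclin known in mice to be needed for growth of the beta cell mass after birth, was lower in fetal pancreas, with 495, 488 and 489 CPM in control pancreata, against 1960, 1714, 2061, 1780 and 1727 CPM in control islets. The log2 fold change was -1.87 (SE 0.0776, edgeR adjusted p = 1.62e-10). It was the most abundant of the 38 genes per kb in both groups, at 80.1 CPM per kb in control pancreata and 302 CPM per kb in control islets. Ccnd3 went the other way, with 161, 142 and 158 CPM in control pancreata, against 41.2, 40.9, 43.1, 36.8 and 33.9 CPM in control islets, a log2 fold change of 2.02. Ccnd1 averaged 240 ± 6.26 CPM in control pancreata (SD, n = 3) and 250 ± 44.2 CPM in control islets (SD, n = 5), with a log2 fold change of -0.01 and an interval of 2 SE either side from -0.25 to 0.22. With pan-epithelial scaling it was called lower, at -0.71. Ccne1, the cyclin E of the G1 to S transition, was higher by 3.05. Under TMM scaling the D-type cyclins were thus split 3 ways between the tissues, but not with pan-epithelial scaling. Several genes overlap another gene by position and no source used here says whether counting used strand, which leaves the reads of such pairs unresolved. These are Orc2 with Nif3l1, Orc3 with Akirin2, Orc4 with Acvr2a, Orc5 with Gm15421, Ccna2 with Exosc9, Plk1 with Dctn5, Kif11 with Gm38437, Cdc20 with Elovl1, Ccnd1 with Oraov1, Ccnd2 with 9330179D12Rik and Ccnd3 with Bysl. In addition, entries that span wide regions in the tables include members, Eno1b with Orc1 and Cdc20, and Mir1957a with Mcm5 and Orc6. Likewise, Mir684-1 includes Orc4, Bub1 and Bub1b, and Mir5098 includes Cdc6, Top2a, Aurkb and Birc5.

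The same contrast in KO libraries, 3 pancreata against 5 islet samples, shares no library with the first and was added after the data had been seen. It gave the same call for 37 of the 38 genes, with 42.8% of 15510 tested genes called higher and 42.2% called lower. The exception was Orc4, at -0.08 (edgeR adjusted p = 0.151). The share of all genes with the same call in both is not given here, so whether this agreement is particular to these genes cannot be told. Mitotic genes ran from 4.59 (Aurka) to 8.33 (Aurkb). Orc6 was higher by 0.50 in KO libraries and by 0.99 in control libraries, and Birc5 by 8.18 and by 7.10.

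**Figure D3:**
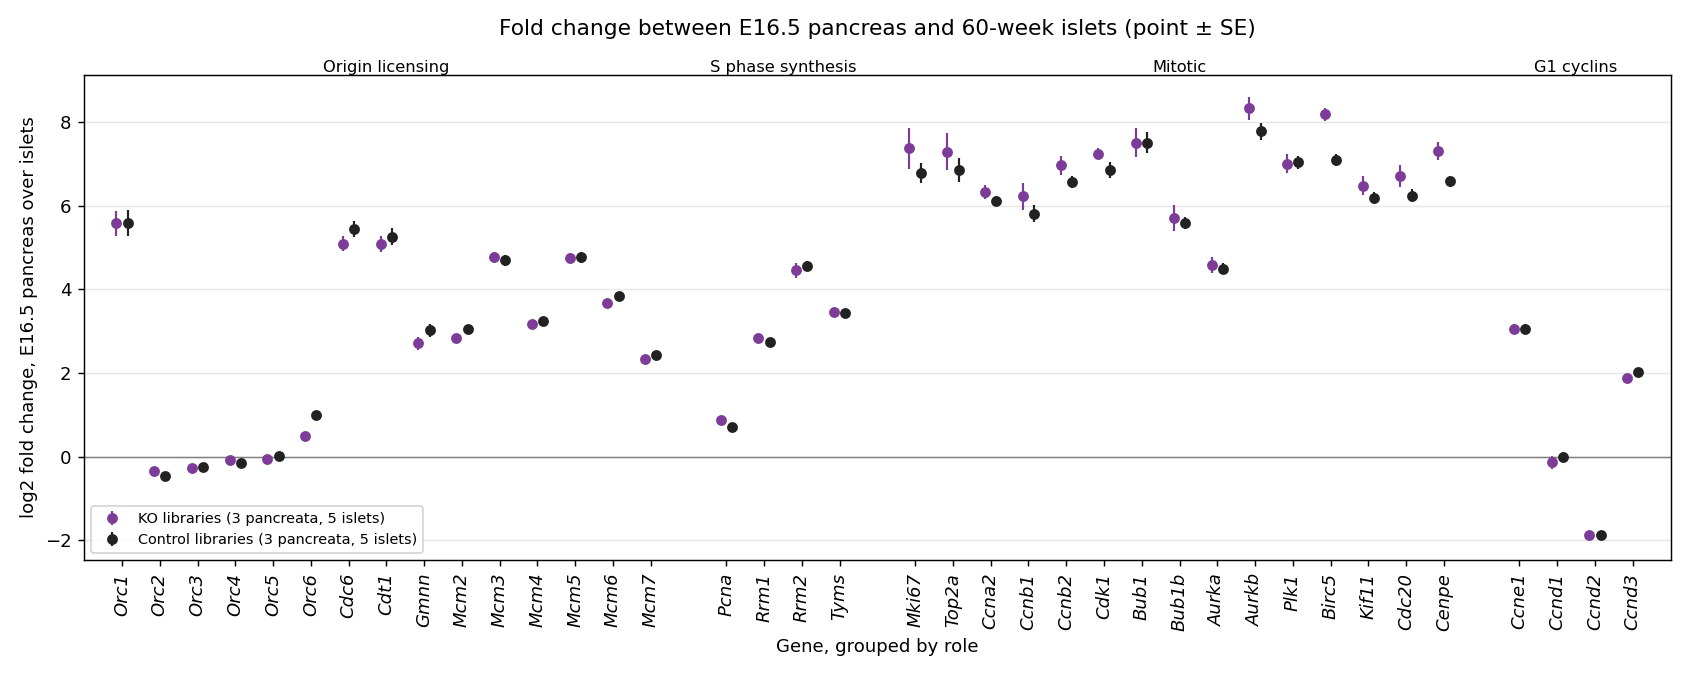
Log2 fold change of E16.5 pancreas over 60-week islets for each gene, with SE bars, in KO libraries and in control libraries. The 15 mitotic genes lie between 4.49 and 8.33 in both, and Orc2 to Orc5, Ccnd1 and Ccnd2 lie at or below 0.02.

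Promoters of the listed genes, whatever their direction, were searched for letters that cell cycle regulators are known to bind. E2F factors drive genes of the G1 to S transition through sites searched here as TTTCCCGC, TTTCGCGC, TTTGCCGC and TTTGGCGC. Genes of G2 and M are known for cell cycle genes homology regions (CHR), searched as TTTGAA and TTTAAA, often near CCAAT boxes, searched as CCAAT. Both strands were read in the RefSeq windows of build GRCm38.p6, which run from 250 bases before to 50 bases after a transcript's start. A gene was counted once if any of its windows held a match. TTTAAA reads the same on both strands, and in Mcm5 and Mcm6 E2F matches on opposite strands overlap each other. Windows were read for 32 of the 38 genes, without Gmnn, Mcm4, Ccna2, Aurkb, Ccnd1 and Ccnd2. An E2F match was in 8 of 13 licensing genes (Orc1, Orc3, Cdc6, Cdt1, Mcm3, Mcm5, Mcm6 and Mcm7) and in 1 of 13 mitotic genes (Cdk1), but in none of the 4 S phase genes (0 of 4) or the G1 cyclins with a window (0 of 2), against 2.605% of all 27025 genes with a window and 4.34% of the 11832 of them tested in the tissue comparison. A CHR match was in 3 of 13 licensing genes and in 12 of 13 mitotic genes, the exception being Bub1, and in 1 of 4 S phase genes and 1 of 2 G1 cyclins, against 30.6% of all genes and 22.8% of those tested. A CCAAT match was in 9 of 13 licensing genes and in 12 of 13 mitotic genes, against 41.1% and 42.3%, and CHR and CCAAT matches together were in 3 and 11 of 13, against 12.2% and 9.28%. Among ORC genes, Orc1, at 5.59, and Orc3, at -0.24, held an E2F match. Orc2, Orc4, Orc5 and Orc6, at -0.47, -0.16, 0.02 and 0.99, held no E2F match, and Orc5 held none of the motifs. These are matches of letters in a short window, not sites shown to be bound.

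The windows below belong to the licensing genes with the largest fold changes, to the mitotic genes with the largest fold changes among those with a window and a match, and to Orc6, chosen after its values were seen and shown because it was called between genotypes in islets. Capitals mark the matches on either strand, and each is printed 5′ to 3′ on the strand of its gene. They lie at chr4:108579204-108579503 (plus) for Orc1, chr11:98907901-98908200 (plus) for Cdc6, chr8:122567765-122568064 (plus) for Cdt1, chr2:127831810-127832109 (minus) for Bub1, chr11:117848987-117849286 (plus) for Birc5, chr7:122159185-122159484 (plus) for Plk1 and chr8:85299382-85299681 (plus) for Orc6.
Orc1: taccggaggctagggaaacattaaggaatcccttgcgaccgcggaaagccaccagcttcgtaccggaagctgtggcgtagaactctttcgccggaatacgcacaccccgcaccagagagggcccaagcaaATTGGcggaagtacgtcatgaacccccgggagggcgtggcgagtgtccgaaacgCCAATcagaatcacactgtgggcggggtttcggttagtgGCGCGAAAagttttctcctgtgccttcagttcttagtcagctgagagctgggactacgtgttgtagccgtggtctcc
Cdc6: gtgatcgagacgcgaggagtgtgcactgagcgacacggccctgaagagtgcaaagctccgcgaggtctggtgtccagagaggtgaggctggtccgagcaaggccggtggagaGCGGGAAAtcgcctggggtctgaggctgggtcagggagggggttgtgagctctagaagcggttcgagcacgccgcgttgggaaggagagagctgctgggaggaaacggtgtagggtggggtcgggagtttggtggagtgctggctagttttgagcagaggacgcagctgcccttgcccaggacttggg
Cdt1: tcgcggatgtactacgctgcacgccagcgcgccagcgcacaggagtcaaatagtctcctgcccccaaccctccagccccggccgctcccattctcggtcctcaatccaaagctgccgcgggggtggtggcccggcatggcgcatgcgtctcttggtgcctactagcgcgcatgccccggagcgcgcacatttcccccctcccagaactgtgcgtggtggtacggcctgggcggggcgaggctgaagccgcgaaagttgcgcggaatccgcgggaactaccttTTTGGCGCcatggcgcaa
Bub1: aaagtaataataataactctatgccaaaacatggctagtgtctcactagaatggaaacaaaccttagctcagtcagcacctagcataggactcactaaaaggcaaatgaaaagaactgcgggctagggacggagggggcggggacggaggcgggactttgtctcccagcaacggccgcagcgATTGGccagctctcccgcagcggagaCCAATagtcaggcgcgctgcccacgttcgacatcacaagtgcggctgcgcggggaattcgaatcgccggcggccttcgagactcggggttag
Birc5: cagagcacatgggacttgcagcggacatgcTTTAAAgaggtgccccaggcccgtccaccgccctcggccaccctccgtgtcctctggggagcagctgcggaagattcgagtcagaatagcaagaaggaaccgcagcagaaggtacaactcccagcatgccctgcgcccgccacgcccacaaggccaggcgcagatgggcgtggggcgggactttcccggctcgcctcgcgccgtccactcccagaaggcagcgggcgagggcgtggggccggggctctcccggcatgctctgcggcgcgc
Plk1: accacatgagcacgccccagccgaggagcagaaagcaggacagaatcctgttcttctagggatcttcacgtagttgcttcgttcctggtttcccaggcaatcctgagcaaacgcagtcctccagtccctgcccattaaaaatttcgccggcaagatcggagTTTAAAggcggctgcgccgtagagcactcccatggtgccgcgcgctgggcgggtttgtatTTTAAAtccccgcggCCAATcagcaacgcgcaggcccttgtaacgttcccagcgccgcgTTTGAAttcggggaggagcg
Orc6: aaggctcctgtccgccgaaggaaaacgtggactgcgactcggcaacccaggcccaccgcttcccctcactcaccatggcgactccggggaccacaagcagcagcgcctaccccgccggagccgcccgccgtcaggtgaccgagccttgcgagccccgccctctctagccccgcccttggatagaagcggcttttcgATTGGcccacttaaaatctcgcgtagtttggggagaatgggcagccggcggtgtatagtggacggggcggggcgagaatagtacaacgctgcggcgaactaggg
The Orc1, Cdc6 and Cdt1 windows each hold 1 E2F match, with those of Orc1 and Cdc6 on the opposite strand. Plk1 holds 3 CHR matches, Birc5 holds 1, and Bub1 and Orc6 hold CCAAT matches only.

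The second comparison set KO against control pancreata at E16.5. None of the 38 genes was called in either direction with edgeR or with DESeq2, while 6.43% of the 14914 genes tested were called with edgeR. At an unadjusted p under 0.05 there were 2, Orc4 and Cenpe, against 25.4% of tested genes. The median log2 fold change was -0.01 over the licensing genes, 0.07 over the S phase genes, 0.04 over the mitotic genes and -0.09 over the G1 cyclins, against 0.00 over all genes tested. All estimates lay between -0.24 (Ccnd1) and 0.37 (Mki67). Groups did not overlap for 2 genes that were higher in KO pancreata, Orc4 and Cenpe, where 13.6% of tested genes had no overlap and were higher. They did not overlap for 3 that were lower, Orc6, Ccnd1 and Ccnd2, where 18.2% had no overlap and were lower.

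Cenpe had 112, 91.4 and 101 CPM in KO pancreata, against 85.9, 90.3 and 80.8 CPM in control pancreata. Every KO value was above every control value, KO 18 only just so. The log2 fold change was 0.26, with SE 0.0842 and an adjusted p of 0.100 from edgeR. Mki67 had 760, 488 and 604 CPM in KO pancreata, against 487, 540 and 428 CPM in control pancreata. Its groups overlapped, and the log2 fold change was 0.37 (SE 0.160, edgeR adjusted p = 0.20), or 0.19 without KO 01. Orc4 had 56.2, 54.3 and 53.5 CPM in KO pancreata, against 45.0, 52.0 and 50.8 CPM in control pancreata, at 0.17 on the log2 scale (SE 0.0697, adjusted p = 0.178 by edgeR). Ccnd1 had 213, 225 and 162 CPM in KO pancreata, against 246, 238 and 234 CPM in control pancreata. KO 19 was the lowest, and the log2 fold change was -0.24 (SE 0.116, edgeR adjusted p = 0.232). Orc6 stood at 33.7, 32.1 and 31.1 CPM in KO pancreata, against 33.8, 34.4 and 34.1 CPM in control pancreata, a log2 fold change of -0.06 (SE 0.0622).

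Much of the spread at E16.5 lay within the KO group. KO 01 was the highest of the 6 pancreata in 29 of the 38 genes, among them 13 of the 15 mitotic genes, and KO 18 was the lowest in 13. No such count over all genes is given here, so whether this is particular to these genes cannot be told. The mitotic genes summed to 2371, 1730 and 1917 CPM in KO pancreata, against 1820, 1998 and 1642 CPM in control pancreata. The licensing genes summed to 1052, 876 and 927 CPM in KO pancreata, against 969, 1013 and 907 CPM in control pancreata. KO 01 was thus the highest pancreas in both sums. It was also the library with the high hepatocyte markers, and it had the lowest acinar sum, 49559 CPM, against 93376 and 83348 CPM in the other KO pancreata and 102186 to 120260 CPM in controls. The part of these cells in the values was not tested. Without KO 01 the median log2 fold change of the 38 genes was -0.08, with 29 below 0, against a median of 0.001 over all genes tested. None of the 38 was called in that fit.

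Epithelial and endocrine markers were lower in KO pancreata. The 16 pan-epithelial genes summed to 2091, 2080 and 2153 CPM in KO pancreata, against 2855, 2992 and 2611 CPM in control pancreata. Of these genes 10 were called lower, where 399 of all 14914 genes tested were. The 12 islet markers summed to 971 to 1568 CPM in KO pancreata and 2400 to 3121 CPM in control pancreata. Relative to the pan-epithelial genes, 36 of the 38 genes were called higher in KO pancreata, but so were 65.2% of all genes tested, and the median of all genes moved to 0.40. The median of the 38 genes moved to 0.39. The 8 endothelial markers summed to 511 to 676 CPM in KO pancreata and 665 to 848 CPM in control pancreata, and 1 was called lower. The 9 autonomic neuron markers summed to 196 to 628 CPM in KO pancreata and 91.3 to 102 CPM in control pancreata. Of these 9, 6 were called higher, where 560 of all 14914 genes tested were. The part of these shifts in the 38 genes' values was not tested. Without control 02, 08 or 13 the genes called over the whole table numbered 0, 4 and 0, against 959 with all libraries.

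**Figure D4:**
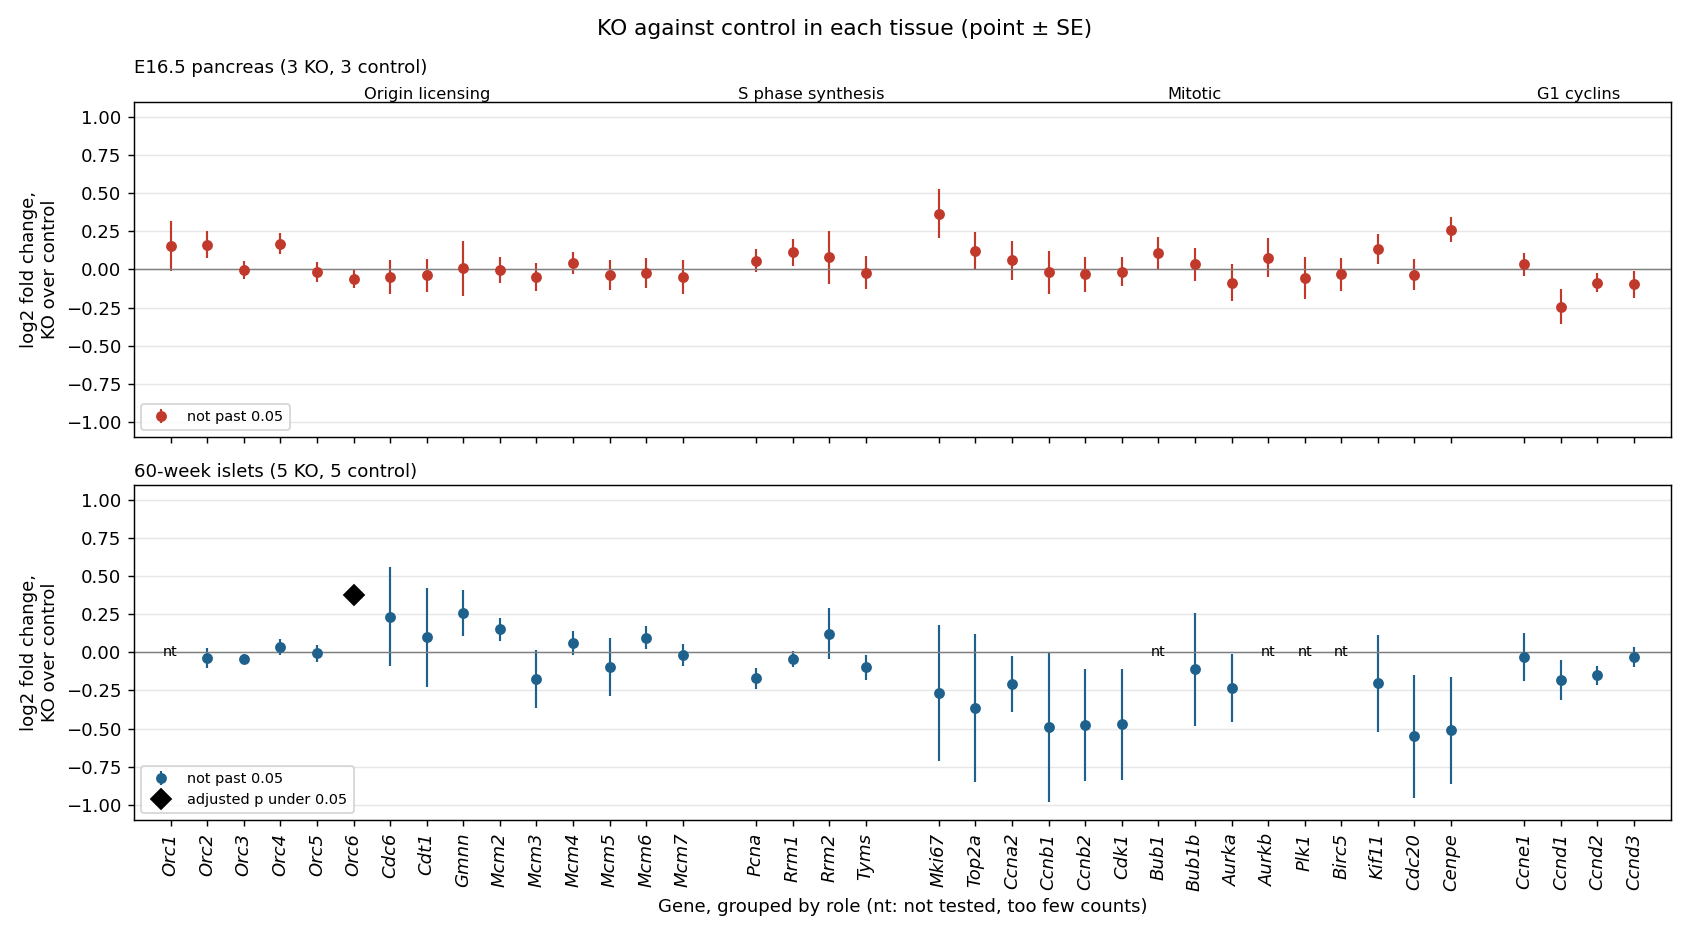
Log2 fold change of KO over control for each gene, with SE bars, in E16.5 pancreas (upper panel) and 60-week islets (lower panel). Only Orc6 in islets, drawn as a diamond at 0.38, passed an adjusted p of 0.05. The 11 mitotic genes tested in islets all lie below 0 with wide bars, and nt marks genes with too few counts to test.

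The third comparison set KO against control islets. Orc6 was higher in KO islets and was the only gene called of the 33 with enough counts to test, where 0.155% of the 14219 genes tested, 22 in all, were called in either direction. It had 23.5, 23.1, 21.5, 25.1 and 21.8 CPM in KO islets, against 17.1, 17.0, 18.6, 17.4 and 18.3 CPM in control islets. Every KO library lay above every control library, as for 0.781% of tested genes. The log2 fold change was 0.38 (SE 0.0547, edgeR adjusted p = 0.0211), a level 1.30 times that of controls. It kept this direction in each of the 16 alternatives, at 0.35 to 0.40, with DESeq2 giving an adjusted p of 2.2e-05. The call was lost without control 052, 826, 857 or 858 or without KO 812, with edgeR adjusted p from 0.0560 to 0.0658. Orc6 is on chromosome 8 from 85299632 to 85308279 (mm10, plus strand). Of the 75 tested genes that start within 3 Mb of it, 3 were called between KO and control islets, Orc6 included, and a genetic difference linked to this region was not tested.

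The rest of the licensing machinery gave no call. The other ORC genes tested ranged from -0.04 (Orc3) to 0.04 (Orc4) in log2 fold change, with SE of at most 0.0660. The MCM genes ranged from -0.17 (Mcm3) to 0.15 (Mcm2). Cdc6, Cdt1 and Gmnn, at 0.23, 0.10 and 0.26, had SE of 0.324, 0.325 and 0.149. At an unadjusted p under 0.05 there were 3 genes, Orc6, Pcna and Ccnd2, where 7.18% of all genes tested passed that level. Pcna had 36.4, 30.0, 29.0, 31.3 and 31.5 CPM in KO islets, against 39.9, 35.6, 35.3, 32.6 and 34.7 CPM in control islets, at -0.17 on the log2 scale (SE 0.0694, adjusted p = 0.621 by edgeR). Ccnd2 had 1765, 1721, 1501, 1657 and 1674 CPM in KO islets, against 1960, 1714, 2061, 1780 and 1727 CPM in control islets, at -0.15 on the log2 scale (SE 0.0607, adjusted p = 0.611 by edgeR). Both genes overlapped between groups. Ccnd1, Ccnd3 and Ccne1 were at -0.18, -0.03 and -0.03, and Rrm1, Rrm2 and Tyms at -0.04, 0.12 and -0.10.

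No mitotic gene was called in islets with edgeR or DESeq2, and none passed an unadjusted p under 0.05. The 11 that were tested all had estimates below 0, from -0.55 (Cdc20) to -0.11 (Bub1b), with SE of 0.183 to 0.491 and a median of -0.37, against 0.00 over all genes. This was not so without every library: without KO 803 Bub1b stood at 0.17 and Kif11 at 0.02, and without control 052 Top2a stood at 0.02. Mki67 had 6.61, 1.90, 1.03, 3.45 and 6.05 CPM in KO islets, against 7.70, 2.68, 5.45, 3.48 and 3.40 CPM in control islets. The groups overlapped widely, with a log2 fold change of -0.27 (SE 0.446). Bub1, Aurkb, Plk1, Birc5 and the licensing gene Orc1 were below the count filter. With no filter Birc5 had a log2 fold change of -1.20 (unadjusted p = 0.00676, edgeR adjusted p = 0.514), from 20 counts over the KO islets and 46 over the control islets, and the other 4 lay between -0.50 and 0.10.

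Mitotic RNA in islets varied widely between animals of 1 genotype. The 15 mitotic genes summed to 25.7, 12.1, 7.06, 17.0 and 23.1 CPM in KO islets, against 31.8, 14.5, 23.7, 16.7 and 17.1 CPM in control islets, with 220 to 669 counts behind each sum. Control 052 was the highest and KO 803 the lowest. Control 052 was the highest of the 10 islet libraries in 11 of the 15 genes, and KO 803 was the lowest in 10. The same count over all genes is not given here. The coefficient of variation between animals had a median over the mitotic genes of 50.8% in KO islets and 40.0% in control islets, where counting error alone gives 26.2% and 22.03%. For licensing genes the median was 8.28% in KO islets and 9.54% in control islets, where counting error alone gives 5.70% in both. Single licensing genes ran from 2.01% to 52.8% in KO islets and from 2.47% to 74.1% in control islets. Orc1, Cdc6 and Cdt1 were the highest in both groups. The licensing genes' summed level was 291 to 319 CPM in KO islets and 285 to 312 CPM in control islets. Erythroid markers summed to 218 CPM in KO 055, 75.0 CPM in KO 803 and 73.3 CPM in control 052, and to 14.3 to 25.8 CPM in the other islet libraries. Leukocyte markers summed to 63.6 to 94.9 CPM in KO islets and 58.2 to 73.6 CPM in control islets. The part of these cells in the mitotic values was not tested.

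**Figure D5:**
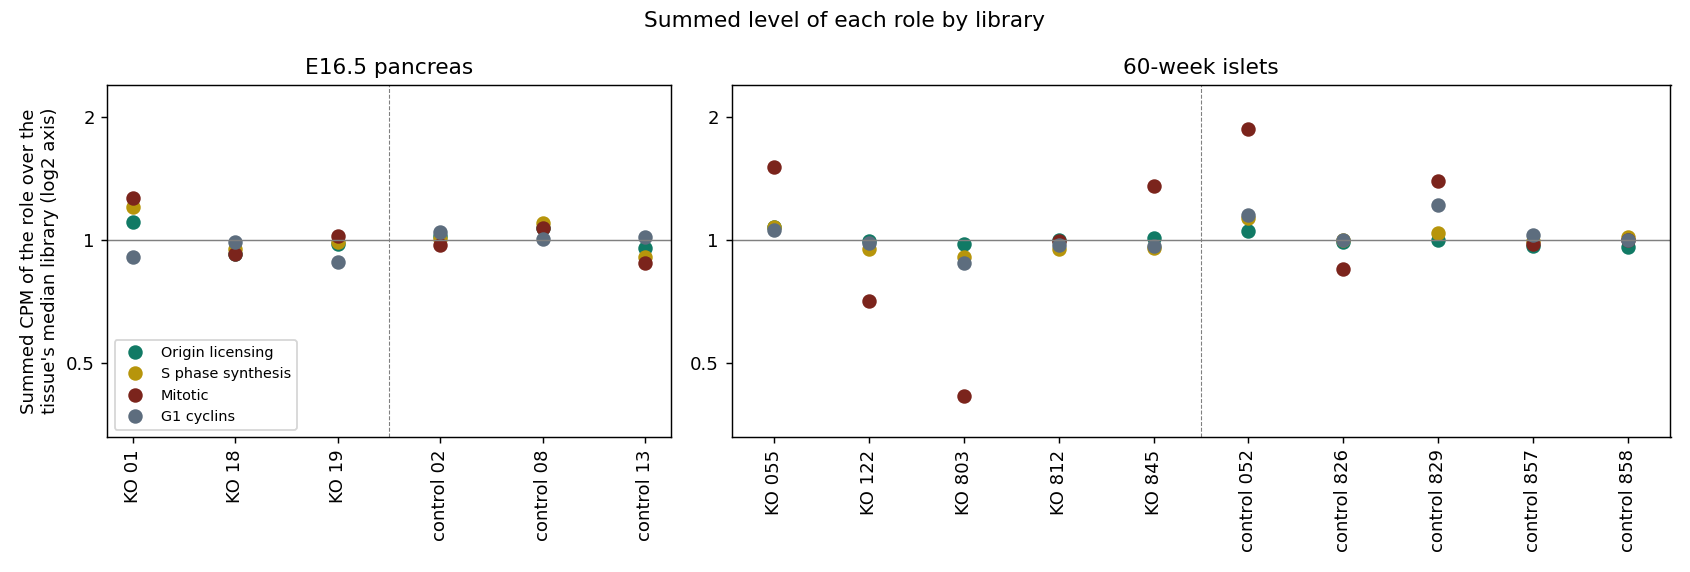
Summed CPM of each role in each library, divided by the median library of that tissue, on a log2 axis; KO libraries are left of the dashed line and controls right of it. In islets the mitotic sum runs from 7.06 CPM in KO 803 to 31.8 CPM in control 052, while the licensing sums stay between 285 and 319 CPM.

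Whether the effect of genotype differed between tissues was tested as an interaction over all 16 libraries, expressed as the effect in pancreas minus the effect in islets. Orc6 was called, at -0.45 (SE 0.0808, edgeR adjusted p = 0.00400), where 7.19% of the 15823 genes tested were called in either direction. The adjusted p for Orc6 was under 0.05 in 21 of 22 alternatives. The exception was scaling to pan-epithelial genes, added after the data had been seen, where Orc6 stood at -0.04 (edgeR adjusted p = 0.730), with genotype estimates of 0.34 at E16.5 and 0.38 in islets. That scaling moved the median of all genes to 0.39 and called 19 members higher, Birc5 and Cenpe among them, where 49.5% of all genes were called higher. The call for Orc6 thus depends on the scaling. No other member was called under TMM. Birc5 had 1.13 (SE 0.349, edgeR adjusted p = 0.0613) and Cenpe 0.77 (SE 0.335, edgeR adjusted p = 0.183). Birc5 was called without control islets 857, at an edgeR adjusted p of 0.0261, and Cenpe without KO islets 055, at 0.0325, and with DESeq2. All 15 mitotic estimates were above 0, with a median of 0.44, though leaving out single libraries put Bub1 as low as -0.33, Plk1 at -0.20 and Bub1b at -0.15. The licensing estimates had a median of -0.03, against -0.02 over all genes.

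Further lists of cell cycle genes were set beside the same background between tissues, 44.7% of tested genes higher and 41.8% lower. Of 34 other replication genes, 33 were higher in control fetal pancreas and 1 was lower. Among the higher were Uhrf1, which links replication to DNA methylation, at 6.81, Pole, a replicative polymerase, at 5.67 and Dbf4, the partner of the Cdc7 kinase, at 3.65, while Rpa1, which binds single-stranded DNA, was lower at -0.34. Of 42 other mitosis genes, 40 were higher, 1 was lower and 1 was not called, with the condensin gene Ncaph at 7.82, the spindle gene Prc1 at 5.33 and the kinesin gene Kif20a at 4.91. Spc25, which encodes a kinetochore subunit, was lower, with 47.8, 52.7 and 44.9 CPM in control pancreata, against 208, 167, 232, 167 and 147 CPM in control islets, a log2 fold change of -1.88 (SE 0.139). Its neighbour on chromosome 2, the islet gene G6pc2, begins 4859 bases away on the other strand and averaged 21.1 CPM in control pancreata and 2165 CPM in control islets. Whether reads of G6pc2 add to Spc25 was not tested.

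Of 21 cell cycle regulators, 16 were higher, 3 were lower and 2 were not called, where 44.7% and 41.8% of all tested genes were called higher and lower. Cdk6, a partner of D-type cyclins, was higher by 5.08, Foxm1, an activator of mitotic genes, by 5.02 and the Cdk1 inhibitor kinase Wee1 by 2.50. The retinoblastoma gene Rb1 was lower at -1.27, its relative Rbl2 at -0.74 and the repressor E2f6 at -0.47. Between genotypes, edgeR called no gene of these 3 lists at E16.5 or in islets. In the order of the lists above, 2 of 34, 4 of 42 and 4 of 21 passed an unadjusted p under 0.05 at E16.5, where 25.4% of all genes did, and 1 of 32, 0 of 35 and 2 of 20 tested did in islets, where 7.18% of all genes did. DESeq2 called 1, Aspm of the mitosis list, at E16.5. Ccne2, a second cyclin E, was called in the interaction at 0.49 (edgeR adjusted p = 0.0248) and in 19 of 22 alternatives, with an adjusted p of up to 0.0786. It had 47.3, 41.1 and 36.0 CPM in KO pancreata, against 33.6, 34.7 and 36.9 CPM in control pancreata, and 7.93 to 10.5 CPM in KO islets, against 10.3 to 11.5 CPM in control islets.

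The 7 genes of cyclin-dependent kinase inhibitors, which hold cells in G1, were divided between tissues. In control fetal pancreas 4 were called higher and 3 lower, where 44.7% and 41.8% of all tested genes were. Cdkn1c (p57), an imprinted gene, averaged 743 ± 39.7 CPM in control pancreata (SD, n = 3) and 2.74 ± 0.284 CPM in control islets (SD, n = 5), a log2 fold change of 8.13. Cdkn1a (p21) was higher by 1.79, Cdkn2c (p18) by 1.33 and Cdkn2d (p19) by 0.34, which turned to -0.36 with pan-epithelial scaling. Cdkn1b (p27) was lower, with 79.1 ± 3.60 CPM in control pancreata (SD, n = 3) and 166 ± 7.46 CPM in control islets (SD, n = 5), and Cdkn2b (p15) was lower by a log2 fold change of -3.40. Cdkn2a, which encodes p16 and is known to rise with age in mouse islets, had 0, 2 and 1 counts in control pancreata, against 14, 5, 23, 14 and 11 counts in control islets. Between genotypes only Cdkn1a was called. It had 58.6, 63.8 and 59.4 CPM in KO pancreata, against 76.9, 70.6 and 79.4 CPM in control pancreata, at -0.30 on the log2 scale (SE 0.0658, adjusted p = 0.0396 by edgeR), called in 5 of 12 alternatives and at 0.09 with pan-epithelial scaling. In islets it had 55.9, 37.7, 32.8, 32.4 and 31.6 CPM in KO animals, against 27.4, 19.5, 25.3, 19.7 and 21.0 CPM in controls, at 0.75 (SE 0.159, edgeR adjusted p = 0.114), and DESeq2 called it higher with an adjusted p of 0.000559. The interaction for Cdkn1a was -1.07 (edgeR adjusted p = 0.00949), called in all 22 alternatives, at -0.66 with pan-epithelial scaling. The other 6 were not called between genotypes with edgeR or DESeq2, apart from Cdkn1b, Cdkn2c and Cdkn2d at E16.5 with pan-epithelial scaling, all higher. With that scaling 65.2% of all genes tested at E16.5 were called higher.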

How the data were processed

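Messenger RNA of 6 whole pancreata and 10 islet samples was sequenced after polyA selection, per the labels' protocols. The deposited values are whole-number counts per gene, 24091 genes in each of 2 tables, with no normalization by the authors in the files. Tools listed per the submitters' processing notes, without their roles, are HTSeq 0.11.1, STAR 2.6.0, edgeR and Trimmomatic, with genome build mm10, and the annotation and use of strand are not given in the sources used. Depth was 14866194 to 32385042 counts a library. Litters are not given, so p-values measure the spread between these animals only.

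Counts were tested with edgeR 4.0.16 (quasi-likelihood F test, TMM scaling, filterByExpr; R 4.3.3) in each comparison's own libraries, and over all 16 for the interaction of tissue and genotype. P-values were adjusted by Benjamini-Hochberg over all genes tested, and a gene was called at an adjusted p under 0.05. CPM values use 1 TMM scaling of all libraries, and CPM per kb divides by gene length. The steps were tested on simulated data with 200 changed genes, none drawn from genes with few counts, and the outcome is not given here. The members and lists were chosen with earlier results of these data known. Members are all given by role; from each further list, the 3 genes of lowest p in each direction among those called were named, and the CDK inhibitors in full. Alternatives were RLE size factors, library totals, DESeq2 1.42.0, no filter, a filter of 1 CPM, scaling to pan-epithelial genes (for islets and the interaction added after the data had been seen), totals without secretory genes, and leaving out each library. Promoter windows and gene positions used mm10 coordinates, as RefSeq GRCm38.p6.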

Additional observations from a re-analysis of the deposited data

Results flagged for a closer look

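Of 76 groups of 5 islet libraries examined gene by gene, 2 held a library far from the others, where chance flags about 1 in 20. Cdc6 was at 1.141 CPM in control islets 052, and the nearest control library had 0.562 CPM. Mcm5 was at 3.80 CPM in KO islets 055, and the nearest KO library had 2.83 CPM. The genotype effect on Orc6 in pancreas minus that in islets was -0.455 on the log2 scale, called in the test of the difference itself. It was -0.043 and not called with pan-epithelial scaling.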

How the results depend on the processing

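No paired analysis was possible because the groups share no replicate numbers. Each library carries its own animal number. In fetal pancreas against islets, 32 genes were called higher under TMM, and 4 lower; 2 were called lower with library totals, and 3 to 4 when a library was left out. Orc4 turned to 0.028 with library totals, where Orc5 was called higher at 0.21. With pan-epithelial scaling Orc5 turned to -0.68 and was called lower, as was Ccnd1 at -0.71. Pcna, at 0.02, was not called with that scaling. In islets, 0 to 1 gene was called higher between genotypes when a library was left out. In the interaction, 1 gene was called higher with DESeq2, and 0 to 1 when a library was left out. Scaling it to pan-epithelial genes, added after the data had been seen, called 19 higher and 0 lower, with Orc6 at -0.04, and turned Orc5 to 0.39, Mcm4 to 0.38, Mcm7 to 0.36 and Ccnd3 to 0.32. At E16.5, scaling to pan-epithelial genes called 36 genes higher as it moved the median of all genes to 0.40. All 21 estimates below 0 turned, Ccnd1 to 0.16 without a call, and 20 with one, namely Orc3 (0.40), Orc5 (0.39), Orc6 (0.34), Cdc6 (0.35), Cdt1 (0.36), Mcm2 (0.40), Mcm3 (0.35), Mcm5 (0.37), Mcm6 (0.38), Mcm7 (0.35), Tyms (0.38), Ccnb1 (0.38), Ccnb2 (0.37), Cdk1 (0.39), Aurka (0.32), Plk1 (0.35), Birc5 (0.37), Cdc20 (0.37), Ccnd2 (0.31) and Ccnd3 (0.30). Over all genes, edgeR called 959 at E16.5 and DESeq2 918 higher and 632 lower; in islets edgeR called 22 and DESeq2 65 higher and 47 lower, and leaving out a library gave 3 to 16 higher and 2 to 10 lower. Islet counts of 15 to 49 over a group limit Orc1, Bub1, Aurkb, Plk1 and Birc5. Other causes of these moves were not tested.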

Other observations

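Values of genes near Orc6 on chromosome 8 were looked at after Orc6 had been called in islets. Of 75 tested genes within 3 Mb on either side of its start, 3 were called between KO and control islets, where 22 of 14219 genes were called over the whole table and 3 of 750 on this chromosome. The others in this window were Man2b1, a lysosomal mannosidase gene that starts at 85083269, and Zfp423, a zinc finger gene that starts at 87661810. Man2b1 was lower in KO islets, at -0.27 on the log2 scale (edgeR adjusted p = 0.0249). Zfp423 had 8.51, 91.5, 101, 130 and 83.8 CPM in KO islets, against 0.873 to 1.76 CPM in control islets, and was higher by 5.99 on the log2 scale (edgeR adjusted p = 0.00268). In E16.5 pancreas the values were -0.06 for Orc6, -0.16 for Man2b1 and -0.02 for Zfp423, and none of these was called. In that tissue 9 of 72 tested genes of the window were called, against 6.43% of all genes. In islets 15 of the 75 passed an unadjusted p under 0.05, against 7.18% of all genes. A genetic difference linked to this region between KO and control animals was not tested.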
